A study of Homo sapiens with 8 samples.

Results

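The chromatin around 8 genes of the primitive streak and early mesoderm was followed by ATAC-seq, in which a transposase cuts accessible DNA, while human embryonic stem cells became cardiomyocytes. The genes are TBXT, MIXL1, EOMES, GSC, MESP1, MESP2, TBX6 and MSGN1, 8 of 19970 protein-coding genes of the annotation. They were chosen by name and not by their values, but with earlier results of these data known. Every peak overlapping a gene or the 50 kb on either side of it was taken. Peaks that overlapped between libraries were merged, which gave 113 distinct regions at these genes among 285909 merged regions in all. The 12 regions of MESP1 are all among the 20 of MESP2, because the annotated 5′ ends of these neighbours lie 9342 bp apart.

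RUES2 embryonic stem cells, an established line, were sampled at 4 stages with 2 replicate libraries each, called hESC (day 0), MES (mesoderm, day 2), CP (cardiac progenitor, day 5) and CM (cardiomyocyte, day 14). The hESC libraries were taken just before the first change to differentiation medium, from cells that had already spent a day in E8 with the Wnt activator CHIR-99021. MES cells had spent 48 hours in RPMI with BSA and ascorbic acid (RBA) and CHIR-99021. CP cells had received the Wnt inhibitor Xav-939 in RBA from day 3, and CM cells had been in RPMI with B27 since day 7. Each library is a whole culture of one cell line, so a change in the share of cells that carry an open site and a change within each cell cannot be told apart. P-values concern cultures of this line only. In tests of MES against the rest, differences among the other stages enter the spread as well.

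The primitive streak is the site where epiblast cells leave the surface layer of the embryo and become mesoderm and endoderm, under Wnt, Nodal and BMP signals. TBXT, EOMES and TBX6 are T-box transcription factors, MIXL1 and GSC are homeodomain factors, and MESP1, MESP2 and MSGN1 are basic helix-loop-helix factors of nascent mesoderm. TBXT and MIXL1 are early Wnt and Nodal responders of the streak, EOMES and GSC act in its anterior, endoderm-forming part, MESP1 marks the first cardiac mesoderm, and TBX6, MSGN1 and MESP2 act in presomitic mesoderm and the forming somites.

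Regions with their highest folds at MES are shown first by their letters, to place the values that follow. Those of MIXL1 and GSC had no peak in hESC, and those of TBXT, the MESP pair and MSGN1 had a peak in at least 1 hESC library. For 5 of the loci, 200 bases around the summit of the region with the strongest MES peak among those highest at MES are printed, on the plus strand of hg38 (GRCh38). At MIXL1 the printed region is the second strongest, because the 200 bases at the summit of the strongest overlap an annotated UTR, and TBX6 had no such region. Capitals mark exact matches, on either strand, to short words known for factors of the streak. For T-box factors the word searched was AGGTGTGA, and separately its shorter core AGGTGT, which overlaps it. For the LEF and TCF factors, which carry the Wnt signal, it was CTTTGAT. The Nodal signal was covered by AATCCACA for FOXH1 and by GTCTGG for the SMAD proteins. Homeodomain factors such as goosecoid and the OTX proteins were covered by TAATCC, zinc finger factors of the GATA family by AGATAA, and the pluripotency factor POU5F1 by the octamer ATGCAAAT. The coordinates are chr6:166204918-166205117 for TBXT, chr1:226203841-226204040 for MIXL1, chr14:94796253-94796452 for GSC, chr15:89767380-89767579 for the MESP pair and chr2:17816024-17816223 for MSGN1.
TBXT, 36.3 kb upstream: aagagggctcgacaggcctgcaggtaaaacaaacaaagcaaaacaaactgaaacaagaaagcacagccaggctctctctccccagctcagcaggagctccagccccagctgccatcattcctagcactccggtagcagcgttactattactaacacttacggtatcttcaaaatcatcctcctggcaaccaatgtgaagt
MIXL1, 19.7 kb upstream: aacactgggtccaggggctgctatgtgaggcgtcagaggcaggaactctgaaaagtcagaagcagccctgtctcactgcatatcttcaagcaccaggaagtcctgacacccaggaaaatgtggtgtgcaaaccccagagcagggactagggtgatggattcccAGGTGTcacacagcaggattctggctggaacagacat
GSC, 26.2 kb upstream: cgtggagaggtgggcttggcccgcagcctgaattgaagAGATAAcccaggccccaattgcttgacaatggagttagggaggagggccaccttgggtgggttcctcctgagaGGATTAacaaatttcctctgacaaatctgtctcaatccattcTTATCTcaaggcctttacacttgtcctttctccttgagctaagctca
MESP1, 16.2 kb upstream: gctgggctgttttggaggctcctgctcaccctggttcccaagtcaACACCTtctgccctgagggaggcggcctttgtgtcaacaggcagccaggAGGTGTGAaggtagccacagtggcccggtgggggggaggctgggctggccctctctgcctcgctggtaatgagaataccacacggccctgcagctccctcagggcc
MSGN1, 0.3 kb upstream: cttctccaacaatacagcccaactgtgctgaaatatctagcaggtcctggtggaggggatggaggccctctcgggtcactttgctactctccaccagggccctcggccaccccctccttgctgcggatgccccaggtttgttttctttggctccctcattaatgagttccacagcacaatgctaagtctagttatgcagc

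The capitals are a GATA word on each strand with a GSC/OTX word between them at GSC, a T-box core at MIXL1, and a T-box core followed by the longer T-box word at the MESP pair. The TBXT and MSGN1 windows held none of the words. Both MES-high regions of the MESP pair, the printed one and that 3.2 kb downstream of the MESP1 5′ end, held AGGTGTGA. That word was in 12.5% of the 16 MES-high regions of the 8 genes, 6.19% of their 113 regions, 5.25% of all MES-high regions and 1.86% of all merged regions. The AGGTGT core, which every AGGTGTGA also contains, was in 18.8%, 19.5%, 21.3% and 13.2% of the same groups. GTCTGG was in 25%, 21.2%, 11.3% and 13.9%, and AGATAA in 6.25%, 3.54%, 18.6% and 11.3%. With 16 regions, each of these shares rests on 1 to 4 regions, and a match is a description of letters only.

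The promoters of the streak gene MIXL1 and of MESP2 are printed as a pair. Among the promoters of these genes with peaks in all 8 libraries, that of MIXL1 had the largest change of pileup. The RefSeq start of MESP2 lies outside the region at the 5′ end of its gene record. TBXT also has a second RefSeq start, and its promoters are not printed. They are the 200 bases upstream of the RefSeq start (GRCh38.p14, plus strand for both), at chr1:226223464-226223663 and chr15:89776132-89776331, with capitals as above.
MIXL1 promoter: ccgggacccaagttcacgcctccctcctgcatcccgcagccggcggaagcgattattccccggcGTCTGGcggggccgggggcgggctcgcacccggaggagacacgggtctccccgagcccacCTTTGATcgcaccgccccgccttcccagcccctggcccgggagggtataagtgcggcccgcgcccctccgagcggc
MESP2 promoter: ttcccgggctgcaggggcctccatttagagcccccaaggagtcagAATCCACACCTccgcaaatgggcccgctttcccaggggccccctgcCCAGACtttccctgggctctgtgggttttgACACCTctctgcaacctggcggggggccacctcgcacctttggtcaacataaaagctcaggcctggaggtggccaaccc

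MIXL1 carried a SMAD and a LEF/TCF word, and MESP2 a FOXH1 word that runs into a T-box core, a second T-box core and a SMAD word. The same words occurred in 11% (SMAD), 1.77% (LEF/TCF), 0.575% (FOXH1) and 7.54% (T-box core) of 35116 RefSeq promoters of this length. The 200 bases upstream of the RefSeq starts of EOMES, GSC and TBX6 and of the upstream TBXT start held none of the words. Those of the second TBXT start held a SMAD word, and those of MSGN1 a T-box core. The gene record of MESP2 used for distances starts at chr15:89760591, whereas the RefSeq start is at position 89776332, within a region 15.7 kb downstream. Values are therefore given for both starts.

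Each peak carries a fold, the pileup of reads at its summit over the local background that the peak caller estimated from a wider stretch around it, and a −log10 q. A region was called high at a stage when the folds of both libraries of that stage exceeded those of all 6 others, a library without a peak counting as lower. The lists held 103118 and 156117 peaks in hESC, 108340 and 156179 at MES, 99789 and 120133 at CP, and 92731 and 55777 at CM, so a missing peak in CM replicate 2 carries less weight than elsewhere. Read depth is unknown from peak lists. Of 8 cardiac progenitor promoters (markers such as ISL1, NKX2-5 and GATA4), 3 and 5 had a peak in hESC and 5 to 6 in each later library, and MES also carried peaks at 7 of 8 endoderm promoters, as against 6 of 8 at hESC. Of 8 promoters on a list of mesoderm markers (HAND1, KDR, PDGFRA and 5 others), which the labels do not define, 7 or 8 had a peak in each library, hESC included. Presence of a promoter peak therefore did not separate MES from hESC for that list. The summed fold over the endoderm promoters was 22 and 22.5 at hESC, 32.2 and 29.5 at MES, 28.6 and 30.5 at CP and 28.3 and 17.8 at CM, with no peak at AFP in any library. Over the mesoderm promoters it was 42.9 and 39.8 at hESC, 39.6 and 39.2 at MES, 41.2 and 48.3 at CP and 39.2 and 44.8 at CM, so it was not higher at MES. The part of endoderm-like cells in the values below was not tested.

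At the 8 genes, 16 of 113 regions (14.2%) were MES-high, where 8.19% of all merged regions were. The other stages gave 8 hESC-high regions (7.08%, background 7.53%), 4 CP-high (3.54%, background 2.49%) and 2 CM-high (1.77%, background 1.75%). MES was thus the stage at which the share of called regions departed most from the genome. The regions of these genes were also found in more libraries than most: 25 of 113 (22.1%) had a peak in all 8, against 9.83% of all regions. Among regions with a peak in both MES libraries, 28.6% of 56 were MES-high at these genes and 26.1% were across the genome, a small difference by fold. In 13 of the 113 regions the fold at MES differed from the other libraries at a two-sided exact permutation p of 0.0357, the smallest that 28 choices of 2 of 8 libraries allow. Over the genome 5.99% of regions reached that level, and no region passed after Benjamini-Hochberg adjustment, with a lowest adjusted p of 0.596. Without MES replicate 1, a region needs only the other MES library to be highest, so a higher count follows from the rule. Then 42 of 114 regions were MES-high, against 27.3% of all.

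**Figure D1:**
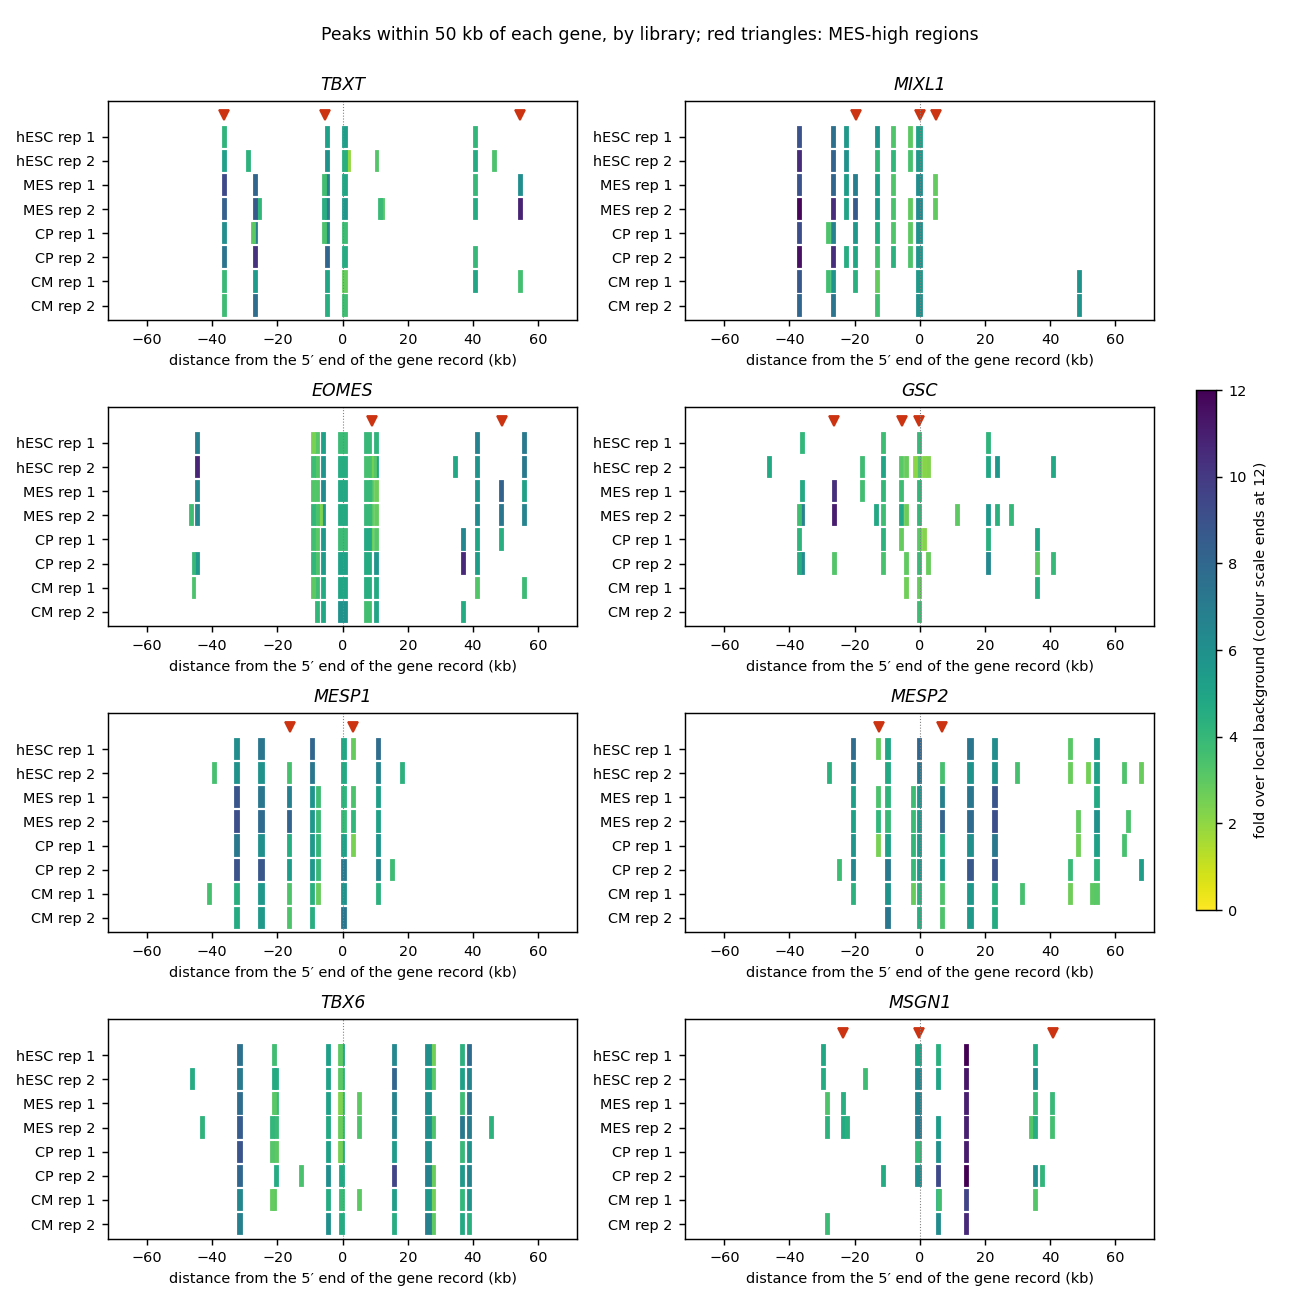
Peaks of the 8 libraries (rows) around each gene, placed by the distance of the region's summit from the annotated 5′ end in kb (horizontal axis, positive downstream), with colour giving the fold over local background; narrow regions are widened to be visible and red triangles mark the MES-high regions. MES-high regions appear at 7 of the 8 gene names and at none of TBX6, and the MESP1 and MESP2 panels overlap in 12 regions, drawn in opposite directions because the genes lie on opposite strands.

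When the pileup was set against the background of the whole library instead of the local one, the contrast was larger. By this measure 32 of 113 regions (28.3%) were MES-high against 8.78% of all regions, and hESC-high regions were 5 (4.42%, against 8.25%), CP-high 3 (2.65%, against 2.31%) and CM-high 1 (0.885%, against 1.7%). The 16 regions found by fold were all among the 32. Of regions with a peak in both MES libraries, 57.1% of the 56 at these genes were MES-high by pileup and 28% of all. Of regions with a peak in all 8 libraries, 13 of 25 (52%) were, against 9.78%. Of the 32 regions MES-high by pileup, EOMES had 7, the MESP pair 6, TBXT and MIXL1 5 each, GSC and MSGN1 4 each and TBX6 1.

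**Figure D2:**
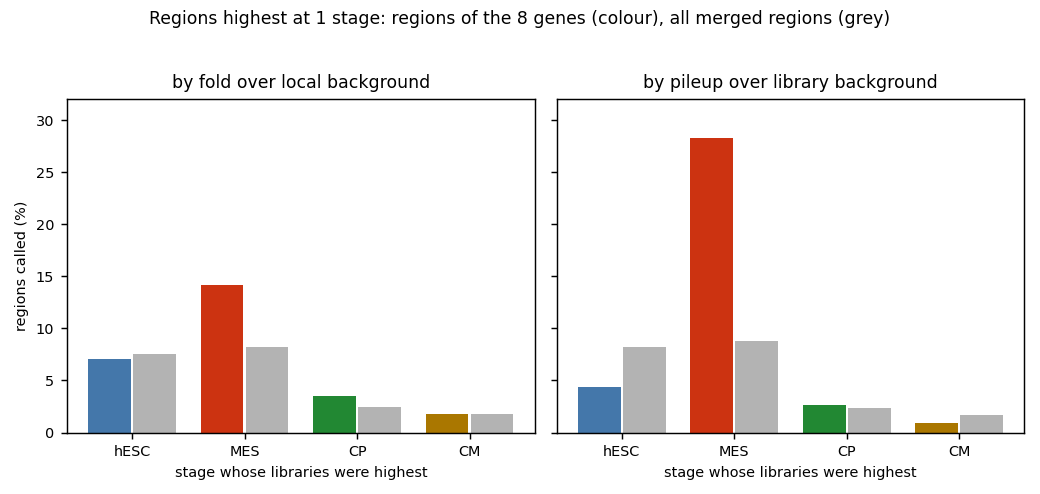
Share of regions (percent) whose 2 libraries of a stage were above all 6 others, for the 113 regions of the 8 genes (coloured bars) and for all merged regions (grey bars), by fold over local background (left) and by pileup over library background (right). At MES the bars stand at 14.2% against 8.19% by fold and at 28.3% against 8.78% by pileup.

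The gap between both measures lies in the local background, which is itself a measure of cutting over the wider surroundings, peaks included. Divided by the library's own lowest background, it was MES-high at all 8 promoters, where 10.1% of all 16088 promoters with a peak were (a promoter being 1 kb either side of the annotated 5′ end). At MIXL1 this ratio was 2.89 and 2.66 at hESC, 5.39 and 5.78 at MES, 3.43 and 3.51 at CP, and 2.1 and 2.11 at CM. The surroundings of MIXL1 thus carried more of the relative signal at MES, 2.05-fold the mean of the other stages on the log scale (exact permutation p = 0.0357, n = 8 libraries). At MESP2 it was 1.62 and 1.80 at hESC, 3.45 and 4.00 at MES, 2.61 and 2.97 at CP, and 2.13 and 1.99 at CM. Both MES libraries again stood above the rest, by 1.74-fold with the same exact permutation p of 0.0357. The windows of MESP1 and MESP2 overlap, so their 1.64-fold and 1.74-fold differences are not separate evidence. The smallest difference was at TBX6, at 1.42-fold, and the remaining genes lay between 1.59-fold (EOMES, GSC) and 1.82-fold (MSGN1, whose CM libraries had no promoter peak and were set at the library floor).

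The exact permutation p was 0.0357 at MIXL1, MESP1, MESP2 and TBX6 and 0.0714 at TBXT, EOMES, GSC and MSGN1, and 0.712 for all 8 after adjustment over the 16088 promoters. Over regions, 37 of 113 (32.7%) were MES-high by local background against 7.31% of all regions. Among those with a peak in all 8 libraries the figures were 17 of 25 (68%) and 11.4%. In every library, at all stages, the median local over library background was higher at these regions (1.98 to 2.54) than over all regions (1.2 to 1.47). Whether this level affects how often a region is called was not tested. This measure was chosen after the values of the first measures had been seen. All 8 promoters were still MES-high when any 1 library was left out, but the share of all promoters called then rose to 25.7% without MES replicate 2 and 32% without CP replicate 2.

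TBXT (Brachyury), which is required for mesoderm to leave the streak, had 15 regions, of which 3 were MES-high. The region 36.3 kb upstream (chr6:166204802-166205325, intergenic) had a peak in every library, with folds of 4.22 and 5.25 at hESC, 9.35 and 8.33 at MES, 6.09 and 7.39 at CP, and 3.93 and 3.76 at CM. Both MES libraries were above CP, which was above hESC and CM (log2 difference of MES from the rest 0.83, exact permutation p = 0.0357). The region 54.5 kb downstream (chr6:166113830-166114687, intergenic) had folds of 6.10 and 10.8 at MES and 3.59 at CM replicate 1, and no peak in the other 5 libraries. The third, 5.4 kb upstream (chr6:166174019-166174417), had folds of 3.65 and 4.50 at MES and 3.41 at CP replicate 1 only. The last pair had no peak in hESC and belong to the 3 regions gained at TBXT. The remaining gained region, 26.8 kb upstream (chr6:166194890-166195707), had folds of 8.12 and 8.70 at MES, 6.87 and 10.3 at CP, and 5.45 and 7.76 at CM. That site was absent in hESC and present in all 6 later libraries, and it was the only gained region of the 8 genes with a peak in both CM libraries. The region with the strongest MES peak, 4.8 kb upstream (chr6:166173252-166173861), had −log10 q of 44.9 and 53.0 at MES and 7.19 to 40.5 elsewhere, but its folds overlapped with those of CP.

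No region covered the 5′ end of the TBXT gene record (chr6:166168700). Its promoter values come from a region with its summit 0.6 kb downstream (chr6:166167346-166168476). That region covers the 5′ end of LNCDAT and also a second RefSeq start of TBXT, at position 166167851. The TBXT promoter had folds of 5.33 and 4.45 at hESC, 4.88 and 5.59 at MES, 3.79 and 4.64 at CP, and 2.82 and 3.69 at CM, so MES overlapped hESC (exact permutation p = 0.179). Its pileup over the library background was 25.5 and 19.9 at hESC, 29.2 and 30.2 at MES, 14.9 and 16.3 at CP, and 7.66 and 8.67 at CM. By that measure the order was MES, hESC, CP, CM with no overlap between stages, and MES was 2.09-fold the others (exact permutation p = 0.0714).

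MIXL1, a homeodomain factor of the streak that acts in mesoderm and endoderm formation, had 11 regions and 3 MES-high ones. The region 19.7 kb upstream (chr1:226203675-226204211, intergenic) had folds of 6.90 and 8.66 at MES, 5.59 and 4.85 at CP, and 4.40 at CM replicate 1, and no peak in hESC or CM replicate 2. It was gained at MES and lower afterwards (exact permutation p = 0.107). The promoter had folds of 5.17 and 5.50 at hESC, 6.12 and 6.27 at MES, 5.94 and 5.71 at CP, and 5.56 and 5.97 at CM. MES was highest by a narrow margin, a log2 difference of 0.14 with an exact permutation p of 0.107. Its pileup over library background was 16.3 and 15.6 at hESC, 34.5 and 37.6 at MES, 21.7 and 21.5 at CP, and 12.7 and 14.6 at CM. On that scale MES was 2.15-fold the others, with an exact permutation p of 0.0357. A weak site 4.9 kb downstream (chr1:226228460-226228718) had a peak only in MES, with folds of 2.88 and 2.92. At the other end of the window, 49.1 kb downstream in an intron of LIN9, a peak was listed only in CM, with folds of 5.87 and 5.81. The strongest MES peak of the window lay over the 5′ end of ACBD3, 36.9 kb upstream, with folds of 9.0 and 11.8 at MES and 8.02 to 11.5 in the other libraries, and did not separate the stages.

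EOMES, a T-box factor upstream of MESP1 in mesoderm and of the endoderm program, had 17 regions and no other protein-coding 5′ end in its window. The region 48.9 kb downstream (intergenic) had folds of 8.26 and 7.27 at MES and 4.49 at CP replicate 1, and no peak in the other 5 libraries (log2 difference 1.85, exact permutation p = 0.0357). The second MES-high region, 8.9 kb downstream in an exon of the non-coding LINC02084 (chr3:27713621-27713968), had folds of 3.35 and 3.14 at MES, 2.57 at hESC replicate 2 and 2.73 at CP replicate 1. Other sites of the same window were highest at other stages. The region 37.0 kb downstream had folds of 6.51 and 10.6 at CP and 4.66 at CM replicate 2 and no peak at hESC or MES. The region 44.5 kb upstream had folds of 6.83 and 10.8 at hESC, 6.45 and 6.44 at MES, and 5.58 at CP replicate 2. EOMES was the only one of these loci with calls at all 4 stages, with 2 hESC-high, 2 MES-high, 2 CP-high and 1 CM-high region.

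The EOMES promoter had folds of 3.83 and 4.59 at hESC, 4.80 and 4.69 at MES, 3.83 and 5.11 at CP, and 4.88 and 5.90 at CM, and the stages overlapped (exact permutation p = 0.893). Its pileup over library background was 21.4 and 22.3 at hESC, 35.6 and 32.5 at MES, 22 and 30.9 at CP, and 15.7 and 18.9 at CM. MES was highest there, 1.59-fold the others (exact permutation p = 0.0357). The strongest MES peak, 5.9 kb upstream (chr3:27728298-27729117), had folds of 6.26 and 5.53 at MES and 4.64 to 5.73 elsewhere, which overlap, and pileups over library background of 39.4 and 34.0 at MES and 11.4 to 26.5 elsewhere, which do not.

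GSC (goosecoid), a homeodomain repressor of the organizer and anterior streak, had the region with the largest MES difference among the 16. It lay 26.2 kb upstream (chr14:94795987-94796642, intergenic) and had folds of 10.4 and 11.0 at MES, 3.25 at CP replicate 2 and no peak in the other 5 libraries. The log2 difference was 2.39 with an exact permutation p of 0.0357, and −log10 q was 37.6 and 40.2 at MES against 3.15 at CP. The region 5.6 kb upstream (chr14:94775385-94775818) had folds of 3.73 and 4.79 at MES, 3.10 at hESC replicate 2 and 2.83 at CP replicate 1. The GSC promoter had folds of 3.95 and 3.31 at hESC, 4.08 and 4.02 at MES, 3.07 and 3.89 at CP, and 2.82 and 3.75 at CM. MES stood highest by less than the spread between the hESC replicates (exact permutation p = 0.107). Its pileup over library background was 17.6 and 14.7 at hESC, 22.8 and 22.9 at MES, 12.2 and 15.4 at CP, and 7.87 and 9.85 at CM. MES was above every other library on that scale, by 1.83-fold (exact permutation p = 0.0714).

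**Figure D3:**
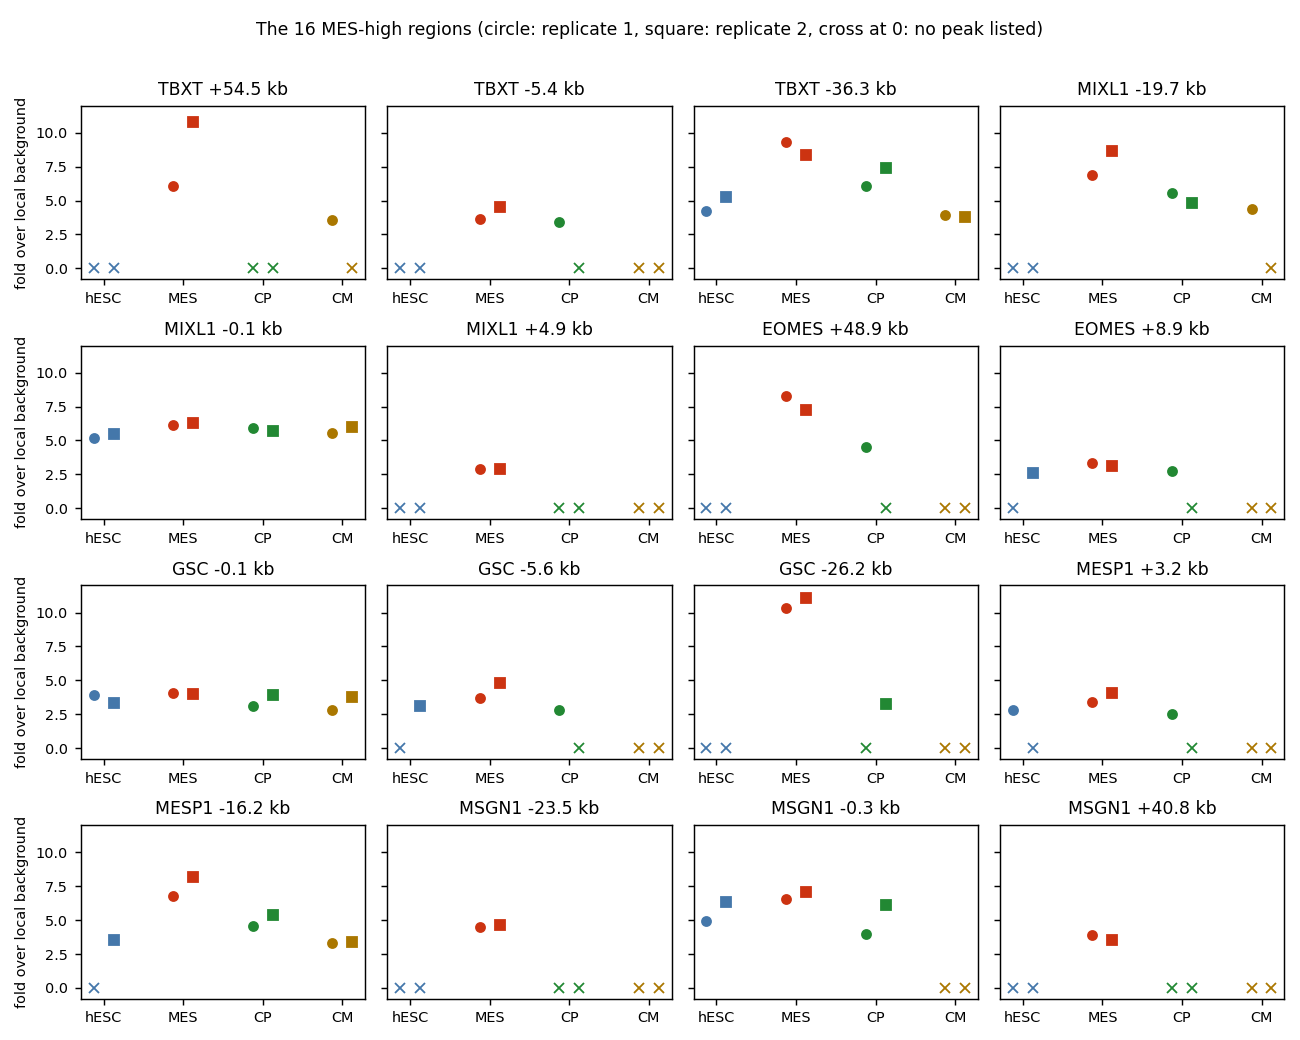
Fold over local background (vertical axis) of the 16 MES-high regions in the 4 stages (horizontal axis), with circles for replicate 1, squares for replicate 2 and crosses at 0 where no peak was listed; panel titles give the distance from the annotated 5′ end. The GSC region 26.2 kb upstream stands at 10.4 and 11.0 at MES against 3.25 in 1 CP library, whereas the MIXL1 promoter panel spans 5.17 to 6.27 over all libraries and the MSGN1 promoter panel has no peak in CM.

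MESP1, the first factor of cardiac mesoderm, and MESP2, which sets somite borders, shared both MES-high regions. The stronger lay 16.2 kb upstream of MESP1, inside the record of MESP2 as an intron (chr15:89766877-89767953), with folds of 3.56 at hESC replicate 2, 6.80 and 8.16 at MES, 4.58 and 5.41 at CP, and 3.34 and 3.36 at CM, and no peak in hESC replicate 1. MES was above CP, and CP above the hESC and CM values, at a log2 difference of 1.09 (exact permutation p = 0.0357). The weaker, 3.2 kb downstream of the MESP1 5′ end (chr15:89747530-89748483), had folds of 3.40 and 4.10 at MES, 2.81 at hESC replicate 1 and 2.48 at CP replicate 1. The strongest MES peak of the pair, 32.4 kb upstream of MESP1 (chr15:89783361-89784620), had folds of 6.15 and 5.93 at hESC, 8.82 and 9.13 at MES, 7.17 and 8.91 at CP, and 4.44 and 4.66 at CM. There MES replicate 1 fell just under CP replicate 2, so the region was not MES-high by fold, while its pileups over library background of 26.9 and 30.5 at MES lay above the 9.84 to 22.4 of the rest.

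The MESP1 promoter went the other way by fold, with 4.86 and 4.78 at hESC, 4.18 and 3.93 at MES, 5.20 and 7.14 at CP, and 5.92 and 7.31 at CM. Both MES libraries were the lowest of the 8 (log2 difference -0.51, exact permutation p = 0.0714). This promoter and an EOMES site were the 2 of 113 regions (1.77%) with a peak in every library and the lowest folds at MES, where 0.114% of all regions and 1.21% of all promoters were called so. Only regions with a peak in all 8 libraries can be called so, and these were 25 of the 113 and 28115 of all, with 326 called among the latter. Part of the contrast with all regions therefore lies in how many could be called. At the MESP1 promoter the lower fold did not come with a lower pileup. Over library background the pileup was 20.4 and 19.9 at hESC, 26.0 and 25.4 at MES, 21.5 and 33.3 at CP, and 20.6 and 24.8 at CM, and MES was not the lowest, while the local background was 1.64-fold higher at MES.

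At the annotated 5′ end of MESP2 the folds were 8.06 and 7.30 at hESC, 5.78 and 5.61 at MES, 5.57 and 5.65 at CP, and 4.38 and 4.47 at CM. The hESC libraries were highest and the CM libraries lowest, and the stages differed by the exact permutation test over all pairings of libraries (p = 0.0190, adjusted p = 0.430). Its pileup over library background had another order, with 15.3 and 14.5 at hESC, 21.3 and 23.6 at MES, 15.8 and 18.2 at CP, and 10.1 and 10.2 at CM. At the RefSeq start of MESP2 (chr15:89775913-89777513) the folds were 7.31 and 5.92 at hESC, 7.30 and 7.84 at MES, 6.03 and 8.76 at CP, and 5.64 and 5.56 at CM, and overlapped between stages. Pileup over library background there was 25.4 and 30.0 at MES and 14.6 to 24.8 in the other libraries, so both starts of MESP2 were MES-high on that scale.

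TBX6, which directs cells to a paraxial mesoderm instead of a neural fate, had 17 regions, and none was MES-high by fold. Its window is crowded, with 7 other protein-coding 5′ ends, among them ALDOA, PPP4C and MAPK3, and its strongest MES peak, 26.3 kb downstream, lay over an annotated 5′ end and had folds of 6.08 and 6.10 at MES and 5.48 to 6.84 elsewhere. The TBX6 promoter had folds of 4.92 and 4.21 at hESC, 3.94 and 3.96 at MES, 4.54 and 4.79 at CP, and 3.87 and 4.65 at CM (exact permutation p = 0.179). Its pileup over library background was 30.6 and 23.2 at hESC, 29.5 and 31.2 at MES, 26.1 and 30.3 at CP, and 18.4 and 21.3 at CM, and MES, hESC and CP overlapped. At this promoter only the local background was higher at MES, at 7.27 and 7.70 against 4.27 to 6.08.

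MSGN1 (mesogenin), a regulator of presomitic mesoderm, had 14 regions and 3 MES-high ones, of which 2 were found in MES only. These lay 23.5 kb upstream in an intron of SMC6 (chr2:17792789-17793077, folds 4.50 and 4.66) and 40.8 kb downstream (chr2:17857092-17857548, folds 3.92 and 3.57). With the MIXL1 site 4.9 kb downstream they made 3 MES-only regions of 113 (2.65%), close to the 2.76% of all regions. Without MES replicate 1, where a peak in the other MES library is enough, MES-only regions were 16 (11.9% of all). Without CP replicate 1 or CM replicate 1 they were 5. The MSGN1 promoter had folds of 4.97 and 6.37 at hESC, 6.53 and 7.05 at MES, and 4.01 and 6.09 at CP, and no peak in either CM library. It was the only promoter of the 8 without a peak in some libraries. With both CM libraries set at the lowest fold of their own lists, exact permutation over all pairings of libraries gave p = 0.0381 (adjusted p = 0.445). That p therefore rests in part on set values. Pileup over library background at this promoter was 11.8 and 14.5 at hESC, 18.7 and 25.1 at MES, and 7.61 and 14.5 at CP. A site 14.4 kb downstream (chr2:17830157-17831129) was the strongest MES peak of the window and was open throughout, with folds of 11.0 and 10.9 at MES and 9.60 to 14.1 elsewhere.

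Counted over the 8 promoters, 3 were MES-high by fold (MIXL1, GSC and MSGN1) where 4.87% of all promoters were, 6 by pileup over library background (all but MESP1 and TBX6) where 7.18% were, and 8 by local background. No promoter passed adjustment over all promoters by any of these measures. The adjusted p of the 8 was 0.981 to 1 by fold, and 0.788 to 0.791 by pileup.

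From hESC to MES, 12 of 113 regions (10.6%) were gained, with a peak in both MES and neither hESC library, where 6.02% of all regions were. A gain needs a peak in both MES libraries, which 56 of the 113 regions and 89656 of all 285909 had. Of these, 12 and 17214 were gained, so the shares among regions with both MES peaks were close. Lost regions were 2 (1.77%), where 3.95% of all were. Without MES replicate 1, where a peak in the other MES library is enough, the gained regions were 29 of 114, against 18.7% of all. The lost regions lay 29.5 kb upstream of MSGN1 in a UTR of GEN1 (folds 4.83 and 4.66 at hESC, no peak elsewhere) and 46.2 kb downstream of the MESP2 5′ end. Gains were at TBXT and MSGN1 (3 each), MIXL1 (2) and EOMES, GSC, the MESP pair and TBX6 (1 each), and 9 of the 12 were intergenic and 0 at a 5′ end. Later peaks were uneven: 3 of the 12 had a peak in both CP libraries, 3 in one of them and 6 in neither, and 1 had a peak in both CM libraries. Of all gained regions of the genome, 25.3% had a peak in both CP libraries and 7.98% in both CM libraries, so the 3 and 1 of 12 are near the background.

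The number of peaks per window depended on how it was scaled. Per 100000 peaks of each library, no window of the 8 genes was highest at MES, where 2.1% of all protein-coding genes were. TBXT, for instance, had 3.88 and 5.12 at hESC, 6.46 and 6.40 at MES, 6.01 and 4.16 at CP, and 6.47 and 7.17 at CM, from 4 to 10 peaks in a library. The windows of TBXT, MESP1 and TBX6 were highest at CM, whose lists were the shortest. The exact permutation p for MES against the rest was 0.179 to 0.964 over the 8 windows. With every list cut to the length of the shortest, 2 of the 8 windows were MES-high (2.32% of all genes), and TBXT (difference 5.08) and EOMES (6.57 peaks per 100000) had an exact permutation p of 0.0357 each, before adjustment. By summed peak width 3 of the 8 windows were MES-high (2.63% of all genes), with TBXT at the same exact permutation p of 0.0357.

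The other genes of streak signalling and early mesoderm, a list of 46 (Wnt, Nodal, BMP and FGF ligands and antagonists, their targets, and factors of nascent mesoderm and somites), were read in the same way. By promoter fold 7 were MES-high (15.2%, against 4.87% of all promoters), namely WNT8A, FOXA2, FGF17, EVX1, FOXC2, RIPPLY1 and LFNG, and 2 were MES-low (MSX1 and SNAI1, against 1.21% of all). Of the 26 listed promoters with a peak in all 8 libraries only 1 was MES-high by fold, against 4.11% of all such promoters, which is near the background. WNT8A, a Wnt ligand of the streak, had folds of 5.88 and 7.24 at MES and at most 4.86 in the other libraries. FOXA2, a forkhead factor of anterior streak and endoderm, had 2.65 and 2.69 at hESC, 4.31 and 5.05 at MES, and 3.34 to 4.18 at CP and CM replicate 1. EVX1, a homeobox gene of the posterior streak, and FGF17, a growth factor, had a promoter peak in MES only, with folds of 2.53 and 2.88 and of 2.67 and 2.58. By pileup over library background 13 of the 46 promoters (28.3%) were MES-high, and by local background 23 (50%), against the 7.18% and 10.1% given above. Of the 26 with a peak in all 8 libraries these counts were 6 and 14, against 6.89% and 11% of all such promoters. By peak density 4 of the 46 windows (8.7%) were MES-high (AXIN2, CER1, FGF17 and RIPPLY2), and FGF17 was the only gene high by both density and promoter fold. Without MES replicate 2, where only the other MES library need be highest, the density count was 8, against 8.63% of all genes.

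The genes whose promoter fold ran most like that of a member over the 8 libraries were found among all protein-coding genes. The closest were S100A2 for TBXT (Pearson's r = 0.987), PCGF6 for MIXL1 (0.957), SETD9 for EOMES (0.975), EPN1 for GSC (0.989), SPATA6 for MESP1 (0.977), RNF208 for MESP2 (0.990), POLDIP3 for TBX6 (0.951) and TSPAN19 for MSGN1 (0.992). None of the 8 genes was among the 5 most alike of another member. The 8 points share libraries and stages, and the highest of many correlations over 8 points is high by construction.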

How the data were processed

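ATAC-seq peaks of 8 RUES2 libraries were analysed, 2 replicates at each of hESC, MES, CP and CM. Per the study's methods and notes, the authors aligned reads to hg38 with BWA 0.7.13, kept those above a mapping quality of 30, removed duplicates with Picard and called peaks per library with MACS2 2.1.0 (q below 0.01, reads shifted by 100 upstream and extended to 200 bases). The deposited peak lists give a fold over local background, which is a ratio, and a −log10 p-value and −log10 q per peak. No counts were used and read depth is unknown; peak number ranged from 55777 to 156179.

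Peaks on chromosomes 1 to 22 and X were merged where they overlapped. GENCODE 44 supplied gene records. Pileup and local background were recovered from fold and p for 100% of peaks within 0.001, and the lowest background of a list was taken as that of its library. A library without a peak was set at the lowest value of its own list for tests. Exact permutation tests ran over 28 choices for MES against the rest and all pairings of the libraries for any stage difference, with Benjamini-Hochberg adjustment over all regions, genes or promoters; 2 against 2 libraries cannot go below 0.333. The work was done in Python 3.11.15 (pandas 2.3.3, numpy 2.4.6, pysam 0.24.0, scipy 1.17.1), with the region calls and exact tests checked on simulated data. The named regions were, for each gene, that over its 5′ end (for TBXT, that within 1 kb of it), that of highest mean MES −log10 q and every MES-high one. The genes, lists and motif words were chosen with earlier results of these data known. Sequences of the MESP1 promoter and of the EOMES regions are not reported here.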

Additional observations from a re-analysis of the deposited data

How the results depend on the processing

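The 16 MES-high regions were all still MES-high under every alternative that kept the 50 kb window, except with lists cut to an equal length of 55777 peaks (13 of 16) and without MES replicate 1 (15 of 16), and none reversed. Counts that moved by over 1.5 times, from the value given above, were as follows, and apart from the narrower or wider windows, which hold fewer or more regions, the cause was not tested. Shares in brackets are of the regions of the 8 genes and then of all. MES-high regions (16) were 32 by pileup over library background (28.3%, 8.78%), 9 in a 10 kb window (20.9%, 8.19%) and 25 in a 100 kb window (12.3%, 8.19%). MES-only regions (3) were 6 at −log10 q of at least 5 (5.83%, 3.24%), 7 with equal lists (11.5%, 3.23%), 5 with summits merged (3.65%, 2.69%), 1 in 10 kb (2.33%, 2.76%) and 7 in 100 kb (3.45%, 2.76%), so equal lists moved them from near the share of all regions to above it. Gained regions (12) were 4 in 10 kb (9.3%, 6.02%) and 19 in 100 kb (9.36%, 6.02%). Windows MES-high by peak density (0) were 2 with equal lists (25%, 2.32%) and 3 by summed peak width (37.5%, 2.63%), and those of the 46 listed genes (4) were 2 at −log10 q of at least 5 (4.35%, 2.44%). MES-high promoters (3) were 6 by pileup (75%, 7.18%). Regions at an exact permutation p of 0.0357 (13, 11.5%) were 20 by pileup (17.7%), 21 with summits merged (15.3%) and 7 in 10 kb (16.3%), with shares of the regions of the 8 genes only. The share of all regions was 5.99% in the main setting and was not computed by pileup or with summits merged.

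With 1 library left out in turn, MES-high regions were 16 to 42, MES-only 3 to 16, gained 12 to 29, windows by density 0 to 0, promoters 3 to 4 by fold and 8 to 8 by local background, listed genes 4 to 8, and regions under a p of 0.05 were 0 to 15. Without either MES library no p under 0.05 can be reached, and calls at MES rest on 1 library and are easier to reach. Comparing only within a replicate number (replicate block), MES-high were 20 regions (10.7% of all), 3 promoters (8.75%), 0 windows and 4 listed genes (3.39%), and 8 promoters by local background (14.4%), where the shares of all were 8.19%, 4.87%, 2.1% and 10.1% without the block. The numbers were not shown to pair the libraries (correlations of replicate 1 deviations -0.109 to 0.0888).

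Some differences of MES from the other stages changed sign. Of the promoters among them, MESP2 and EOMES were called MES-high by pileup, and MESP1 and TBX6 were not. Peak density is per 100000 peaks, but unscaled it is a number of peaks, and by width it is per 100000 bases of summed peak width. These units cannot be set against each other. In peak density, MIXL1 went to 1.79 with equal lists, 0.464 in 10 kb, 1.5 unscaled, and lay between -1.31 and 0.307 with 1 library left out. MESP1 went to 3.29 with equal lists, 0.0962 in 10 kb, 0.167 unscaled and 0.555 by width, and MESP2 to 3.88 and 0.234 (equal lists, width). EOMES went to -0.558 in 10 kb and lay between -0.372 and 0.495 with 1 library left out. GSC (-0.174) and MSGN1 (-1.17) turned in 10 kb, and TBX6 unscaled (2.33) and by width (0.74). In promoter log2 fold, pileup turned MESP1 (0.159), MESP2 (0.714) and TBX6 (0.306). MESP2 also turned with all transcript starts (0.157) and lay between -0.093 and 0.0827 with 1 library left out, and EOMES between -0.0203 and 0.105. With 2 libraries a stage and peak lists in place of counts, small differences of fold were not detectable.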
